A study of Drosophila pseudoobscura with 29 samples.

Results

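Promoter activity in embryos of the fly Drosophila pseudoobscura was compared between 9-12 h and 12-15 h after egg laying. The comparison took 6 of the 29 libraries of a developmental series: the 1-hour windows 9-10 h, 10-11 h and 11-12 h on one side, and 12-13 h, 13-14 h and 14-15 h on the other. All 6 were whole embryos of the reference genome strain of the species, laid in population cages and not otherwise treated, so the sides differed by age alone as far as the labels say. Each window was 1 library, and the 3 windows of a side stood in for replicates: the spread within a side therefore held any change within those 3 hours, and p-values measured the spread among windows, which may in part be technical.

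RAMPAGE captures cDNA that reaches the capped 5′ end of its transcript, and the first base of a read therefore maps a transcription start site. A promoter is represented in the deposited tables by a transcription start site cluster (TSC), the stretch of genome over which its start sites lie. The unit is RPM, reads of a promoter or gene scaled to a total of reads in its library. Values were given for 26066 TSCs and for 8466 genes. That total differs between genes and TSCs: at 9-10 h a single read is 0.1206 RPM for genes and 0.1217 RPM for TSCs. The gene rows carry other identifiers than the 10231 genes that TSCs were assigned to. The paper matched gene profiles between species by orthology calls. The gene rows may thus be named after orthologues in another species, which was not checked. The middle of embryogenesis in Drosophila is known for the retraction of the germ band, the closure of the dorsal side and the start of terminal differentiation in muscle, nervous system and epidermis. Narrow promoters are known mostly from developmentally regulated genes and broad promoters from genes used in all cells. The stage of these embryos was not given beyond their age in hours.

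The gene tables do not pair identifiers with gene names, so gene families and tissue markers could not be looked up, and the tissues present could not be checked against their markers. Promoters are therefore given by their position, chromosome and strand in the FlyBase r2.9 build. Whole reads could be recovered from the RPM values. The libraries held between 1131265 reads (12-13 h) and 8214790 reads (9-10 h) in TSCs, and the absence of reads allows for 3 of them, or 0.365 RPM in the 9-10 h library but 2.65 RPM in that of 12-13 h. The 9-12 h libraries together held 14451406 reads and the 12-15 h libraries 7178721. These limits cover counting error only.

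Most genes changed little between the sides. Of the 7150 genes with a mean of at least 1 RPM over the 6 libraries, the median difference, 12-15 h minus 9-12 h, was 0.03 on the log2(RPM + 1) scale, and the median size of the difference was 0.37. On that scale a change of a low gene is understated. Similarity of the windows fell with their distance in age, though not in every pair. Over these genes the Pearson correlation of log2(RPM + 1) was 0.971 between 9-10 h and 10-11 h, 0.969 between 10-11 h and 11-12 h, and 0.942 between 11-12 h and 12-13 h across the border of the comparison. It was 0.942 and 0.944 for the next neighbours up to 14-15 h, and 0.864 between 9-10 h and 14-15 h, the pair furthest apart. Windows 2 hours apart were at 0.955 for 9-10 h and 11-12 h and at 0.947 for 11-12 h and 13-14 h, both above these later neighbours. With every library thinned to 925922 reads, the correlations of neighbours were 0.953, 0.956, 0.937, 0.932 and 0.933, so at equal depth the border stood close to the later pairs of neighbours. Genes are not independent replicates, and these values describe the libraries.

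More genes rose than fell. In limma's moderated test with Benjamini-Hochberg adjustment, 152 genes passed an adjusted p of 0.05, which is 2.13% of those tested. Of these, 122 (1.71% of the genes tested) were higher at 12-15 h and 30 (0.42%) were lower. Some called genes had nearly equal values in every window, so the counts may not be of separate changes. The risers differed by 0.92 to 3.03 on the log2 scale, with a median of 2.22 and a median SE of 0.37, and 88 of them by 4-fold or more on that scale. The genes that fell differed by -1.12 to -4.76, with a median of -1.73 and a median SE of 0.32, and 11 of them by 4-fold or more. Over all genes tested the SD of the difference was 0.75, and a further 96 genes differed by 4-fold or more without passing the test. In all 152 called genes the 3 windows of one side lay entirely above those of the other, which the test favours. Such separation was seen in 1892 of all 7150 genes (26.5%), of which 1124 were higher at 12-15 h (15.7%) and 768 lower (10.7%). In whole embryos, fewer cells of a type and less RNA per cell cannot be told apart. RPM counts the RNA present, so a change in its production and a change in its loss cannot be told apart either. Promoters described below as more active are those with more RPM.

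Called risers started lower than called falling genes, which choosing genes by these same windows favours, so the levels are a description. The median of all tested genes was 25.2, 24.2 and 26.4 RPM in the 9-12 h windows. The median riser had a mean of 8.52 RPM at 9-12 h and 40.4 RPM at 12-15 h. For the median gene that fell the means were 89.3 and 21.0 RPM. Among the 122 risers, 10 had a mean under 1 RPM at 9-12 h, 55 lay between 1 and 10 RPM, and 57 were already at 10 RPM or more. Of the 30 genes that fell, 19 were still at 10 RPM or more at 12-15 h and 2 were under 1 RPM. Thus most of the called genes moved between measurable levels.

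These calls rested on a narrow margin, since the adjusted p-values of called genes ran from 0.033 to 0.05. Without the 9-10 h, 10-11 h, 13-14 h or 14-15 h library, limma called 0 genes, although 948, 1008, 1227 and 1169 genes were then at an unadjusted p under 0.05, against 1417 (19.8%) with all 6 libraries. Without 11-12 h it called 153, of which 86 were among the 152, and without 12-13 h, the shallowest library, it called 526. The quasi-likelihood test of edgeR on the recovered reads called 250 of 6387 genes (3.91%), of which 199 were higher (3.12%) and 51 lower (0.798%), and 150 of the 152 were among them. DESeq2 called 665 of 7565 genes with an adjusted p (8.79%), including all 152. In each of these fits all 152 genes kept the sign of their difference. A slope over the start hour of the 6 libraries called 807 genes (608 rising and 199 falling), so the design does not tell a step at 12 h from a steady course.

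The called genes were followed through the other windows, leaving out 27-28 h, which held only 1011 reads. The median riser was at 0.542 RPM at 0-1 h, 5.43 RPM at 9-10 h, 53.0 RPM at 14-15 h and 86.3 RPM at 17-18 h, its highest median, and was at 23.5 RPM at 28-29 h. The rise thus went on after the windows compared. For the median gene that fell the course was 13.8 RPM at 0-1 h, 106 RPM at 9-10 h, 17.3 RPM at 14-15 h and 7.83 RPM at 28-29 h. The contrast itself chose these genes, so the distance between both courses at 9-15 h is a description.

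**Figure D1:**
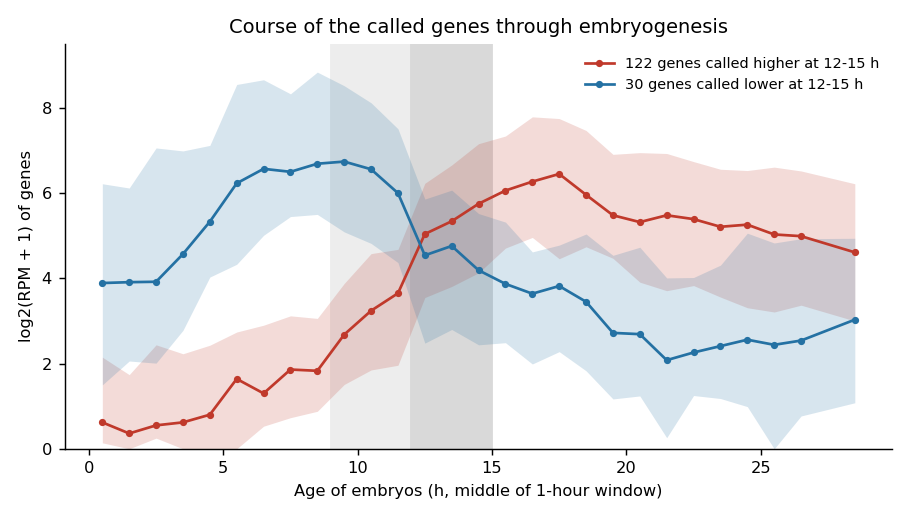
Median log2(RPM + 1) (lines) with quartiles (bands) of the 122 genes called higher and the 30 called lower at 12-15 h, against the age of the embryos in hours. Light and dark grey mark 9-12 h and 12-15 h. The median riser climbs to 86.3 RPM at 17-18 h, whereas the median falling gene is at its highest, 106 RPM, at 9-10 h.

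Of the 122 risers, 15 (12.3%) peaked within 12-15 h, 12 of them at 14-15 h. A further 58 (47.5%) had their highest value in windows starting at 15 to 19 h, and 43 (35.2%) in windows starting at 20 h or later. The most frequent peak was 17-18 h, with 20 genes, followed by 22-23 h, with 16. Between these, at 20-21 h, no riser peaked. That library held only 726088 reads in TSCs. The median riser was at 43.7, 38.9 and 43.7 RPM at 19-20 h, 20-21 h and 21-22 h, without a marked gap. Peaks of all tested genes were not counted by single window, so the single-window counts are a description. Another 5 risers peaked at 0-3 h, in the first hours after laying, and 1 at 3-4 h. Of the 7150 genes tested, 9.19% had their maximum within 12-15 h, 10.9% between 15 and 20 h, 18.2% at 20 h or later and 28.7% within the first 3 hours.

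Among the 30 genes that fell, 18 had their maximum between 3 and 9 h, 6 within 9-12 h and 4 within 0-3 h. Of all genes tested, 27.5%, 5.58% and 28.7% did so. As the sides of called genes did not overlap, falling genes could not peak at 12-15 h, nor risers at 9-12 h. The shares of called genes are therefore a description. The most frequent window was 8-9 h, with 6 genes. The remaining 2 peaked at 25-26 h and 26-27 h, after the low level of 12-15 h. Including the 27-28 h library left the number of risers that peaked within 12-15 h at 15.

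**Figure D2:**
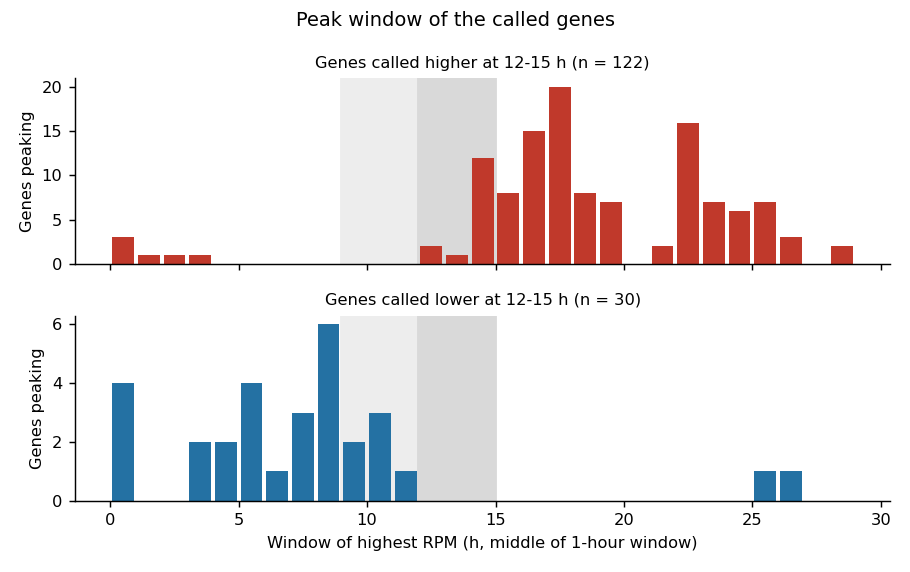
Number of genes with their highest RPM in each 1-hour window, for the 122 genes called higher (top) and the 30 called lower (bottom) at 12-15 h. Light and dark grey mark 9-12 h and 12-15 h. Among risers, counts are highest at 17-18 h, with 20 genes, and at 22-23 h, with 16 genes. Single windows have no share of all tested genes beside them.

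Single promoters, which share reads with the genes, showed a similar balance. Of 15054 TSCs with a mean of at least 1 RPM, limma called 408 (2.71%), of which 316 were higher at 12-15 h (2.1%) and 92 lower (0.611%). Some called TSCs hold identical values under different gene identifiers, so the counts may include the same promoter more than once. Rises ran from 0.92 to 3.04 on the log2 scale, with a median of 2.11, and falls from -0.94 to -4.76, with a median of -1.82. The median rise was thus larger in size than the median fall, whereas the most extreme value was a fall. Of the 82 risers in the gene table that could be tied to the promoters of a gene, 79 had a TSC called higher, and each of the 25 tied genes that fell had a TSC called lower. The tie required equal reads in all libraries, so this overlap was nearly fixed in advance and lends the gene result no support. The quasi-likelihood test of edgeR called 525 of 10653 TSCs (4.93%), and DESeq2 1113 of 14344 (7.76%).

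**Figure D3:**
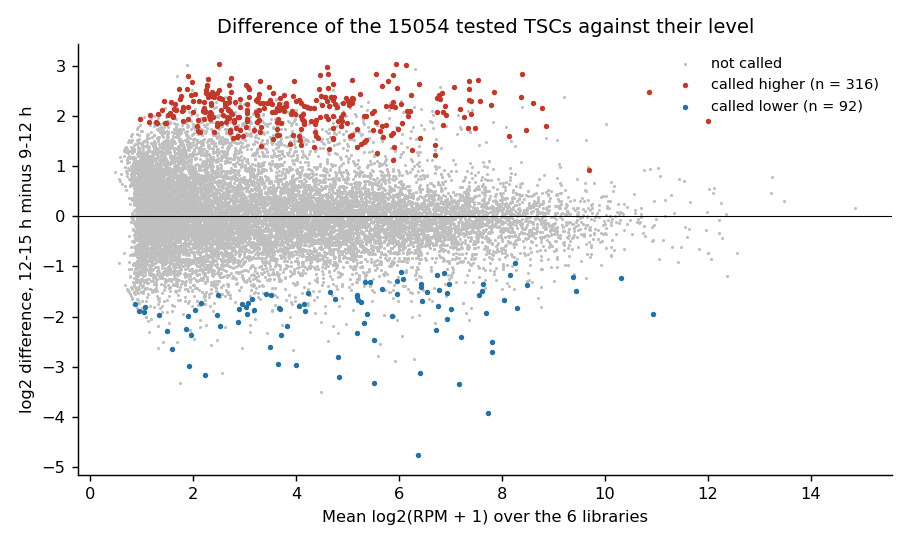
Difference in log2(RPM + 1) between 12-15 h and 9-12 h against the mean level over the 6 libraries, each point being 1 of 15054 TSCs. Called TSCs (316 higher in red, 92 lower in blue) lie from low to high levels, and the lowest point, at -4.76, is the promoter on chromosome XR with the largest fall.

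Scaling bore on the share of rises more among promoters than among genes. TMM and upper-quartile scaling shifted all TSC differences by -0.14 and -0.13, and under them 66.2% and 67.3% of called TSCs were higher at 12-15 h, against 77.5% as deposited. TMM called 157 TSCs higher and 80 lower, and upper-quartile scaling 282 and 137. Every TSC called in the deposited scale kept its sign under both. Without the 9-10 h, 10-11 h or 14-15 h library no TSC was called, although 1960, 2027 and 2384 were at an unadjusted p under 0.05. Without 13-14 h 2 were called and without 12-13 h 1096.

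The 6 largest rises among gene-assigned TSCs, with groups that did not overlap and a mean of at least 10 RPM on the higher side, lay on chromosomes 2 and XR. The largest was a promoter of 58 bp on chromosome 2 (20087373 to 20087430, minus strand). It stood at 12.4, 37.9 and 17.9 RPM in the 9-12 h windows and at 99.9, 239.7 and 226.7 RPM in the 12-15 h windows. Its levels at 12-15 h were all above those at 9-12 h, and 12-13 h was the lowest of them. Means rose from 22.7 ± 13.4 to 188.8 ± 77.2 RPM (SD, n = 3 windows), 3.04 ± 0.45 (SE) on the log2 scale (limma adjusted p = 0.031), and the promoter peaked at 304 RPM at 17-18 h. Its gene, FBgn0037447 in the gene table, was also the largest rise there, at 3.03 ± 0.46 (limma adjusted p = 0.033). A second promoter of that gene, 159 bp wide and downstream at 20085152 to 20085310, stood at no more than 1.10 RPM at 9-12 h and at 1.77, 5.96 and 6.69 RPM at 12-15 h, without passing the test (limma adjusted p = 0.088).

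A promoter of 47 bp close to the end of the chromosome 2 sequence (49272 to 49318, plus strand) had little signal before 12 h. It held 1.70, 1.92 and 0 RPM at 9-12 h and 9.72, 16.6 and 21.6 RPM at 12-15 h. Its difference was 3.03 ± 0.50 (SE; limma adjusted p = 0.034), and 14-15 h was its highest window of the whole series. On scaffold XR_group8, a promoter of 109 bp (2473386 to 2473494, plus strand) stood at 16.2, 15.3 and 53.3 RPM and then at 156.5, 178.4 and 281.7 RPM. Part of its rise came before 12 h, between 10-11 h and 11-12 h. The difference was 3.01 ± 0.46 (limma adjusted p = 0.031), and its gene, FBgn0035539 in the gene table, was the second largest rise among genes, at 3.01 ± 0.47 (limma adjusted p = 0.033).

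Another pair of risers lay on the same scaffold. A broad promoter of 263 bp (4979807 to 4980069, minus strand) was at 3.53, 17.5 and 6.79 RPM and then at 31.8, 73.6 and 126.3 RPM (difference 2.97 ± 0.59, limma adjusted p = 0.042). It went on to 322 RPM at 19-20 h. A promoter of 161 bp (3279284 to 3279444, minus strand) was at 6.82, 6.95 and 11.6 RPM and then at 41.6, 48.1 and 135.3 RPM (difference 2.83 ± 0.45, limma adjusted p = 0.031), and reached 367 RPM at 17-18 h. In both, 14-15 h was the highest of the 6 windows and the series maximum came later.

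The most active of the 6 was a promoter of 45 bp on scaffold XR_group6 (5644990 to 5645034, plus strand). It was at 124.5, 79.5 and 190.1 RPM at 9-12 h and at 503.9, 679.9 and 2078 RPM at 12-15 h. The last window stood far above the 2 before it, so the mean of 1087 ± 863 RPM (SD, n = 3) at 12-15 h varied widely, against 131.4 ± 55.6 RPM at 9-12 h. The difference was 2.84 ± 0.51 (SE; limma adjusted p = 0.036).

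**Figure D4:**
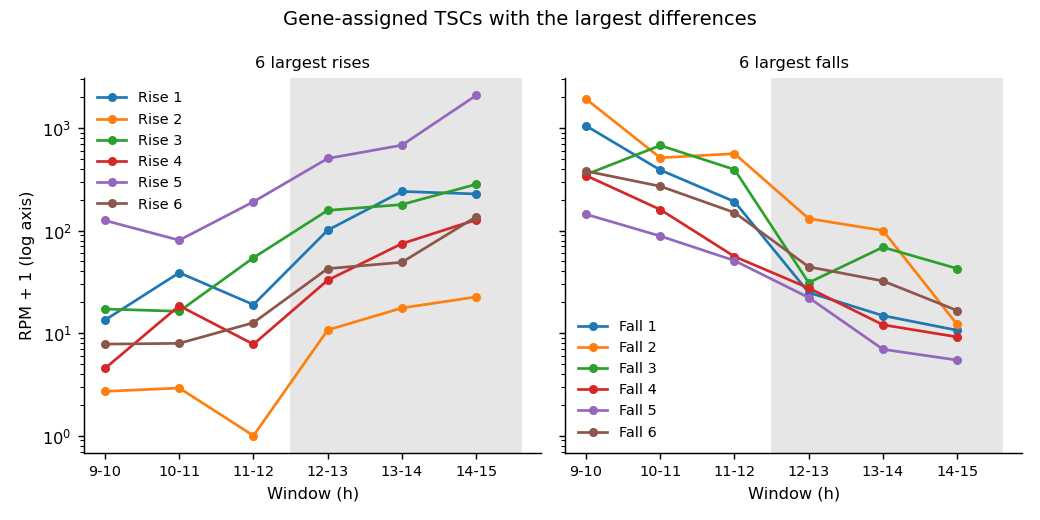
RPM + 1 on a log axis in each 1-hour window for the 6 largest rises (left) and 6 largest falls (right) among gene-assigned TSCs, numbered by the size of the difference, with 12-15 h in grey. Rise 5, on scaffold XR_group6, ends at 2078 RPM, and fall 1, on the same scaffold, goes from 1050 to 9.66 RPM.

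The 6 largest falls were each larger in size than the largest rise, and several began before 12 h. The largest was that of a narrow promoter of 25 bp on scaffold XR_group6 (769033 to 769057, minus strand). It stood at 1050, 388.6 and 190.6 RPM at 9-12 h and at 23.9, 13.8 and 9.66 RPM at 12-15 h, so that every window was below the one before it. The means were 543 ± 450 and 15.8 ± 7.30 RPM (SD, n = 3), a 34.4-fold fall in RPM, and the difference was -4.76 ± 0.56 (SE; limma adjusted p = 0.031). Its peak, 1988 RPM, came at 5-6 h, and at 15-18 h its mean was 4.72 RPM. In the gene table this is FBgn0000216, with the largest fall there (-4.76 ± 0.59, limma adjusted p = 0.033).

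A second narrow promoter, 27 bp on scaffold 4_group4 (4115648 to 4115674, plus strand), had been at 4901 RPM at 7-8 h. It was at 1915, 511.9 and 561.5 RPM at 9-12 h and at 129.9, 99.1 and 11.1 RPM at 12-15 h. The steepest drop within 12-15 h came between 13-14 h and 14-15 h. The difference was -3.92 ± 0.84 (SE; limma adjusted p = 0.046), with the largest SE of the 12 promoters.

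In contrast, a promoter of 212 bp on chromosome 2 (19212212 to 19212423, minus strand) dropped mainly across 12 h. It stood at 351.0, 675.3 and 392.8 RPM and then at 30.1, 67.8 and 41.6 RPM. Within each side the middle window was the highest, and every window at 12-15 h was far below those at 9-12 h. The difference was -3.34 ± 0.35 (SE; limma adjusted p = 0.031). FBgn0002732, its gene in the gene table, was the second largest fall there (-3.34 ± 0.36, limma adjusted p = 0.033).

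The other 3 fell through all 6 windows. A promoter of 257 bp on chromosome 3 (14712561 to 14712817, plus strand) went from 343.3 RPM at 9-10 h through 159.3 and 54.8 RPM to 26.5, 11.1 and 8.18 RPM (difference -3.33 ± 0.63, limma adjusted p = 0.037). On chromosome 2 (19227188 to 19227429, minus strand) a promoter of 242 bp went from 143.2 RPM through 87.4 and 49.9 RPM to 21.2, 5.96 and 4.46 RPM (difference -3.20 ± 0.55, limma adjusted p = 0.036). On chromosome 3 (16233085 to 16233225, plus strand) a promoter of 141 bp went from 379.3 RPM through 269.5 and 148.9 RPM to 43.3, 31.3 and 15.6 RPM (difference -3.11 ± 0.43, limma adjusted p = 0.031). All 3 had peaked at 5-6 h.

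The 3 most active called TSCs in each direction show changes among abundant transcripts, and were chosen after the values were seen. The most active riser, 170 bp on scaffold XR_group8 (787077 to 787246, plus strand), climbed in every window, from 1445, 1843 and 3539 RPM to 5678, 8134 and 10545 RPM. Means were 2276 ± 1112 and 8119 ± 2433 RPM (SD, n = 3), and the difference was 1.90 ± 0.35 (SE; limma adjusted p = 0.037). The mean had been 249.9 RPM at 6-9 h, and 14-15 h was its highest window of the series.

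Next came a promoter of 93 bp on chromosome 3 (2081083 to 2081175, minus strand), at 526.6, 844.4 and 1097 RPM and then at 3835, 5605 and 3906 RPM (difference 2.47 ± 0.29, limma adjusted p = 0.031). A promoter of 132 bp on chromosome 2 (3645710 to 3645841, plus strand) had the smallest called rise and the tightest sides. It held 588.0, 622.6 and 589.7 RPM and then 1152, 1110 and 1140 RPM, a 1.89-fold rise from 600.1 ± 19.5 to 1134 ± 21.7 RPM (SD, n = 3; difference 0.92 ± 0.18, limma adjusted p = 0.042). Within each side it did not drift, unlike the most active riser.

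Among the falls, a promoter of 194 bp on scaffold 4_group1 (3039161 to 3039354, minus strand) was the most active. It was at 4421, 4405 and 2941 RPM at 9-12 h and at 934.4, 1249 and 862.1 RPM at 12-15 h (difference -1.94 ± 0.24, limma adjusted p = 0.031), and had peaked at 17238 RPM at 4-5 h. A broad promoter of 558 bp on chromosome 2 (60974 to 61531, plus strand) fell from 2249, 2028 and 1607 RPM to 963.5, 669.5 and 875.5 RPM (difference -1.23 ± 0.23, limma adjusted p = 0.037). One of 127 bp on chromosome 3 (8228323 to 8228449, plus strand) fell from 1523, 1132 and 895.7 RPM to 617.0, 265.4 and 426.6 RPM (difference -1.49 ± 0.33, limma adjusted p = 0.049). All 3 still stood at 265.4 RPM or more in every window at 12-15 h.

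Calls were also counted over the promoters of each gene. Of 2375 genes with 2 or more tested TSCs, 150 had a called TSC, and in 134 of these 1 was called. A promoter that did not pass the test is not thereby shown to be unchanged. In 14 genes at least 2 were called in the same direction. In the remaining 2 genes, promoters were called in opposite directions.

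The first lies on scaffold XR_group6, minus strand, and had 2 tested promoters 7.81 kb apart. The upstream one, 124 bp (9204283 to 9204406), stood at 43.6, 46.7 and 57.2 RPM and then at 133.5, 128.9 and 178.4 RPM. Its sides did not overlap, and the difference was 1.55 ± 0.24 (SE; limma adjusted p = 0.031). The downstream one, 97 bp (9196374 to 9196470), stood at 93.1, 94.4 and 60.1 RPM and then at 31.8, 18.1 and 5.95 RPM, a difference of -2.33 ± 0.51 (limma adjusted p = 0.048). It peaked at 10-11 h, and at 15-18 h its mean was 2.45 RPM, while the upstream promoter was then at 165.7 RPM. The downstream promoter was the more active in each 9-12 h window, by little at 11-12 h, and the upstream promoter in each 12-15 h window.

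The second lies on the plus strand of chromosome 2 and had 6 tested TSCs spread over 107.8 kb. The first promoter, 150 bp (21063506 to 21063655), was at 10.4, 19.4 and 44.6 RPM and then at 58.3, 71.0 and 69.9 RPM, without passing the test (difference 1.61 ± 0.45, limma adjusted p = 0.089). The second, 69 bp and 2.19 kb downstream (21065848 to 21065916), was at 43.5, 72.1 and 143.1 RPM and then at 239.6, 344.1 and 348.6 RPM, and was called higher (1.99 ± 0.40, limma adjusted p = 0.042). Both climbed through 9-12 h.

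The third promoter of this gene, 120 bp (21164372 to 21164491), lay 98.5 kb further downstream. It held 570.4, 514.3 and 349.6 RPM and then 187.4, 95.3 and 174.7 RPM (difference -1.67 ± 0.31, limma adjusted p = 0.037). At 9-12 h it was more active than the second promoter in every window, and at 12-15 h less active in every window. The 3 TSCs further downstream stayed at 12.6 RPM or less in all 6 windows and were not called.

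**Figure D5:**
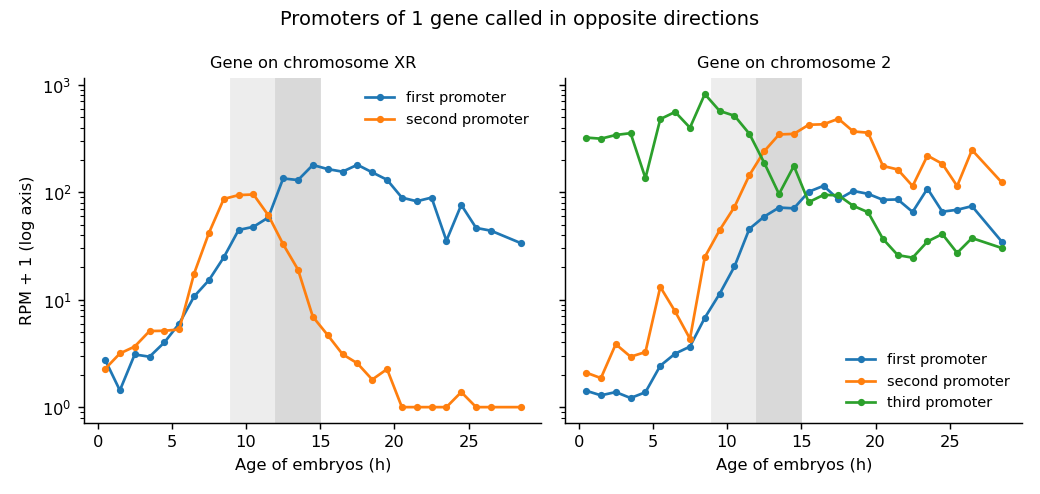
RPM + 1 on a log axis against the age of the embryos for the promoters of the 2 genes called in opposite directions, ordered from upstream to downstream, with 9-12 h and 12-15 h in light and dark grey. In the gene on chromosome 2 the promoters with a mean under 10 RPM are left out. In both genes an upstream promoter rises while a downstream promoter falls.

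Promoters assigned to no gene took part at nearly the share they had among tested TSCs. Of 2929 tested unassigned TSCs, 73 were called (2.49%), 57 higher and 16 lower, against 335 of 12125 assigned TSCs (2.76%). They made up 18.0% of TSCs called higher (Wilson 95% interval 14.2% to 22.7%), 17.4% of those called lower (11.0% to 26.4%) and 19.5% of all tested. The intervals treat promoters as independent, although all were read from the same 6 libraries and some called TSCs hold identical values in every window. No test was run between these shares, which are a description.

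The 5 largest unassigned rises had means of 12.3 RPM or less at 9-12 h. The most active lay on scaffold XR_group8 (5959177 to 5959241, plus strand, 65 bp), at 11.4, 11.3 and 14.1 RPM and then at 51.3, 93.4 and 133.0 RPM. It varied little within 9-12 h and climbed in each window of 12-15 h, a difference of 2.72 ± 0.36 (SE; limma adjusted p = 0.031), and 14-15 h was its peak. The largest difference was 2.74 ± 0.38 (limma adjusted p = 0.031), on scaffold XL_group1e (974330 to 974434, plus strand, 105 bp), from 1.10, 1.20 and 0.485 RPM to 10.6, 9.15 and 16.4 RPM. The last of the 5, on scaffold XL_group1a (2569130 to 2569232, plus strand, 103 bp), went from 1.10, 0.479 and 1.46 RPM to 7.96, 11.7 and 14.1 RPM (difference 2.61 ± 0.39, limma adjusted p = 0.031). In these low promoters a single read was worth up to 0.884 RPM.

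A pair of unassigned risers lay on chromosome 3, and both went on rising for hours. At 4166931 to 4167016 on the minus strand (86 bp), the levels were 4.99, 12.0 and 14.1 RPM and then 38.9, 64.7 and 107.0 RPM (difference 2.64 ± 0.46, limma adjusted p = 0.036), with a peak of 321 RPM at 22-23 h. At 16353478 to 16353731 on the plus strand (254 bp), they were 2.19, 2.88 and 1.94 RPM and then 15.9, 16.4 and 27.5 RPM (difference 2.62 ± 0.35, limma adjusted p = 0.031), with a peak of 60.4 RPM at 23-24 h.

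Unassigned falls included 2 promoters with means of 539 and 237 RPM at 9-12 h. On scaffold XL_group1e (11051313 to 11051456, plus strand, 144 bp) the levels were 486.1, 685.6 and 444.7 RPM and then 157.3, 112.1 and 45.3 RPM, a difference of -2.50 ± 0.42 (SE; limma adjusted p = 0.034). On scaffold 4_group3 (7846630 to 7846666, minus strand, 37 bp) they were 208.4, 310.9 and 190.6 RPM and then 65.4, 48.7 and 33.4 RPM (difference -2.26 ± 0.31, limma adjusted p = 0.031). Both had their series maximum at 10-11 h, inside the windows compared, and fell in each window from there to 14-15 h.

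The other 3 were lower. A promoter of 19 bp on an unplaced scaffold (Unknown_singleton_907, 427 to 445, minus strand) went from 22.5, 15.1 and 6.30 RPM to 0.884, 1.06 and 0 RPM (difference -3.16 ± 0.51, limma adjusted p = 0.032). On chromosome 2 (15524259 to 15524366, plus strand, 108 bp) another went from 12.9, 14.9 and 7.27 RPM to 1.77, 2.98 and 0.743 RPM (-2.19 ± 0.44, limma adjusted p = 0.042). The last, on scaffold XL_group1e (7510031 to 7510170, minus strand, 140 bp), went from 9.98, 14.1 and 6.79 RPM to 2.65, 2.34 and 0.743 RPM (-1.98 ± 0.43, limma adjusted p = 0.048). At 14-15 h each of these was at or below the level of a single read.

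Called promoters were found on all arms. On chromosome 2, 2.19% of 3429 tested TSCs were higher and 0.642% lower. The shares were 1.95% and 0.72% on chromosome 3, 2.3% and 0.507% on chromosome 4, and 2.47% and 0.679% on XR, the arm that joined the X chromosome later in this lineage. On XL, the older X arm, 48 of 2809 (1.71%) were higher and 10 (0.356%) lower. No test was run between arms, and the counts were small.

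Width differed little. The median TSC called higher spanned 88 bp (quartiles 38 and 161 bp), the median TSC called lower 97.5 bp (47 and 155 bp), and the median tested TSC 87 bp (48 and 136 bp). Clusters were called by the authors on reads of the whole series, so widths carry no age of their own. Called TSCs were more active than the rest, with medians of 16.7 RPM (higher) and 46.2 RPM (lower) against 8.71 RPM, and widths were not compared at equal level.

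Some called genes were neighbours. Taking each gene by its most active TSC, 204 of 8259 genes were higher (2.47%) and 61 lower (0.739%), and stretches of up to 100 kb with at least 3 genes called in the same direction were sought, a rule set after the data were seen. It found 1 stretch of falls and 5 of rises. The stretch of falls covered 48.8 kb of chromosome 2 (19178656 to 19227429) and held 12 tested genes, of which 5 were called lower, 10 had a difference below 0 and 2 above. The rule chose each stretch, of falls or of rises, for its called genes, so the counts of all stretches are a description.

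All 5 fell by 4-fold or more on the log2 scale, with differences of -2.04 to -3.34, and 2 of them are among the 6 largest falls above. The other 3 had narrow promoters. The first (19178656 to 19178680, minus strand, 25 bp) went from 377.0, 251.8 and 156.6 RPM to 42.4, 69.1 and 69.9 RPM (limma adjusted p = 0.035). The next (19190605 to 19190639, plus strand, 35 bp) went from 1537, 567.0 and 209.0 RPM to 105.2, 102.1 and 59.5 RPM and was at the threshold (limma adjusted p = 0.050). The last (19224039 to 19224072, minus strand, 34 bp) went from 553.3, 290.1 and 240.0 RPM to 83.1, 64.7 and 46.8 RPM (limma adjusted p = 0.031). In all 3 the highest of the 6 windows was 9-10 h, and the 5 genes had peaked between 5-6 h and 9-10 h.

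Among the stretches of rises, the tightest lay on scaffold XR_group6 and held 3 tested genes within 3.5 kb (5641535 to 5645034), all called higher. In any stretch with only 3 tested genes, the rule required all of them to be called. The last of them is the promoter that reached 2078 RPM. The first (5641535 to 5641764, minus strand, 230 bp) went from 6.45, 18.5 and 10.2 RPM to 38.9, 64.0 and 77.3 RPM (difference 2.32, limma adjusted p = 0.036). The middle one (5643168 to 5643183, plus strand, 16 bp) went from 1.46, 1.68 and 1.46 RPM to 7.96, 12.8 and 16.4 RPM (difference 2.35, limma adjusted p = 0.031). All 3 were highest at 14-15 h of the 6 windows and peaked in the series between 15-16 h and 17-18 h.

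A stretch of 46.1 kb on scaffold 4_group1 (117183 to 163297) held 4 tested genes, all with a difference above 0 and 3 of them called higher. Their promoters, all on the minus strand, went from 10.4, 16.1 and 55.8 RPM to 114.0, 163.5 and 204.4 RPM in the first, from 3.41, 3.11 and 9.21 RPM to 25.6, 38.3 and 23.0 RPM in the second, and from 28.2, 43.1 and 89.2 RPM to 269.6, 257.6 and 270.5 RPM in the third. In each, 11-12 h was already the highest window of its side. In 2 further stretches on chromosome 4, only 3 of 16 and 3 of 10 tested genes were called. In the last, on chromosome 2 (7451891 to 7469460), all 3 tested genes were called and peaked at 22-24 h, at no more than 25.3 RPM in the 6 windows.

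Switches from no read at all were rare. Of the tested TSCs, 10 had no read in the 9-12 h libraries together and 15 had none in the 12-15 h libraries, of which limma called 1 and 2. The strongest without a read at 9-12 h, on scaffold 4_group4, owed its 31 reads to 12-13 h alone (27.4 RPM), with 0 reads at 13-14 h and 14-15 h, so it did not behave as a rise over the side. The strongest without a read at 12-15 h, an assigned promoter on chromosome 2 that starts at 14626377, had held 153 reads at 9-12 h, at 16.7, 2.40 and 2.91 RPM. Pooled over the 9-12 h libraries it was at 10.6 RPM, a level set mostly by the 137 reads of 9-10 h. At 12-15 h the limit was 3 reads of the pooled libraries, which is 0.418 RPM. The promoter was thus at least 25.3-fold below its pooled level, and it did not pass the test (limma adjusted p = 0.057).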

How the data were processed

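RAMPAGE libraries of whole D. pseudoobscura embryos were barcoded, pooled and sequenced as a single library by the authors. Per the labels, reads were aligned with STAR; the build was FlyBase r2.9. The deposited RPM values for genes and TSCs were made by the authors, who called TSCs on the whole series and deposited their intervals, from which positions and other features (widths, strands) were taken. A deposited table of smoothed z-scores was not used.

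Groups came from the hours after egg laying in the stage labels. limma 3.58.1 (R 4.3.3, trend option) was fitted to log2(RPM + 1) of the 6 libraries, for features with a mean of at least 1 RPM, with Benjamini-Hochberg adjustment at 0.05. Whole reads were recovered from RPM (100% of nonzero values within 0.1 of a whole number) and tested with edgeR 4.0.16 and DESeq2 1.42.0. Scripts were tested on simulated data. Gene and TSC tables shared 0 identifiers; 6633 gene rows were tied to a TSC gene by equal reads in all libraries, and 1833 were not. Genes of the reference table (another build) matched none, so gene lists and promoter sequences were not analysed here.

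Named items were the 2 largest rises and falls of genes, the 6 of assigned and 5 of unassigned TSCs, with separate groups and a mean of at least 10 RPM. As genes had no names, the planned 12 per direction were replaced by these. Members and lists were chosen with earlier results of these data known. With 3 against 3 windows an exact permutation test cannot go below p = 0.1.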

Additional observations from a re-analysis of the deposited data

How the results depend on the processing

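No paired analysis was possible because the windows carry no shared replicate numbers in the labels and each is a different age. Of 152 genes and 408 TSCs called, the counts became 101 and 68 with log2(RPM + 0.1), 33 and 114 with a mean of at least 10 RPM, 90 and 216 with reads thinned to the smallest library, 665 and 1113 in DESeq2, 807 and 1384 for a slope on the start hour, 513 and 1157 with all libraries but 27-28 h in 3-hour groups, and 484 and 1171 without 11-12 h and 12-13 h. edgeR called 250 genes, no filter left 172 TSCs and TMM scaling 237 TSCs. Leaving out 1 library gave 0 to 526 genes and 0 to 1096 TSCs. Genes with promoters called in opposite directions numbered 2, against 0 with TMM scaling, log2(RPM + 0.1) or a mean of at least 10 RPM, 1 with no filter or thinned reads, 12 in DESeq2 or for the slope, 10 with all libraries but 27-28 h, 11 without 11-12 h and 12-13 h, and 0 to 10 without 1 library. The median width of TSCs called higher minus lower was -9.5 bp, -58 bp with log2(RPM + 0.1), and -30 to -12 bp without 1 library. The unassigned share of called TSCs, 17.9%, was 0% to 21.1% without 1 library, the 0% resting on 2 calls. Fits with no call gave no share or width.

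Among 37 single genes and TSCs named, 660 alternative values kept their direction, 201 of them past the threshold no longer and 4 newly past it. Of the 201, most came from leaving out 9-10 h, 10-11 h, 13-14 h or 14-15 h, and 18 from log2(RPM + 0.1). The causes were not tested. Counts of gene lists and promoter motifs were not run. Depth limits low promoters most at 12-13 h, where 3 reads are 2.65 RPM.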
